A study of Mus musculus with 6 samples.

Results

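The genes examined were 8 regulators of cellular sterol content, namely Srebf1, Srebf2, Scap, Insig1, Insig2, Mylip, Nr1h2 and Nr1h3. They were taken by gene name from the table of the series, and the 8 make up all of the named regulators among its 16300 genes. RNA was sequenced from granulosa cells (GCs), the somatic cells that surround the oocyte, which were collected from wild type C57BL/6J mice aged 8 to 9 weeks and grown in culture. Each library held the GCs of 5 mice, so that a library and not a mouse is the replicate. The cells were cultured for 48 h with serum and starved of serum for 4 h. They then received serum-free medium without androgen in the control group (n = 3 libraries) or with 25 nM dihydrotestosterone (DHT) for 24 h in the DHT group (n = 3 libraries). Aromatase does not turn DHT, a potent androgen, into estrogen. The labels name whole ovary in 1 field, whereas title and cell type name GCs. Of the GC markers, Inha and Inhba were abundant here, whereas Fshr and Amh were low (mean RPKM, reads scaled to gene length and library, 1.65 and 2.03 in control).

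Cells sense their own cholesterol through these proteins. SREBP-1 and SREBP-2, the products of Srebf1 and Srebf2, are transcription factors made as precursors in the membrane of the endoplasmic reticulum, where they bind SCAP. When sterol is scarce SCAP escorts them to the Golgi for cleavage, and the released fragment turns on genes of lipid synthesis and uptake, whereas with ample sterol INSIG1 or INSIG2 holds SCAP back. The liver X receptors LXRβ (Nr1h2) and LXRα (Nr1h3) respond to oxysterols together with a retinoid X receptor and turn on genes of cholesterol efflux. MYLIP, also called IDOL, is a ubiquitin ligase that sends lipoprotein receptors to the lysosome and is itself an LXR target. In GCs this cholesterol is the substrate of steroid hormones.

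Insig1, Srebf2 and Srebf1 were higher in DHT-treated GCs, by 64.6%, 40.4% and 33.8%, respectively. The other 5 regulators, Scap, Insig2, Mylip, Nr1h2 and Nr1h3, did not pass the test, with differences in the mean from -5.49% (Insig2) to 4.39% (Scap). Differences were tested with limma on log2(normalized count + 1) and adjusted by Benjamini-Hochberg over the 16292 genes with a mean normalized count of at least 10, and a gene counted as called where this adjusted value did not exceed 0.05. A normalized count is the number of reads of a gene divided by a size factor of its library, and does not take gene length into account. Thus 3 of 8 regulators were called higher and 0 lower (also 0 lower at an unadjusted p under 0.05, in edgeR and in DESeq2), beside 6.52% of all genes tested that were called higher and 4.66% that were called lower (11.2% in either direction). With the further requirement of an absolute log2 fold change above 1, 0 of 8 were called, against 1.31% of all genes. The 3 control and 3 DHT libraries did not overlap for 3 of 8 regulators, a pattern seen in 30.6% of all genes. The median log2 fold change of the 8 regulators was 0.05, and that of all genes was -0.01.

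**Figure D1:**
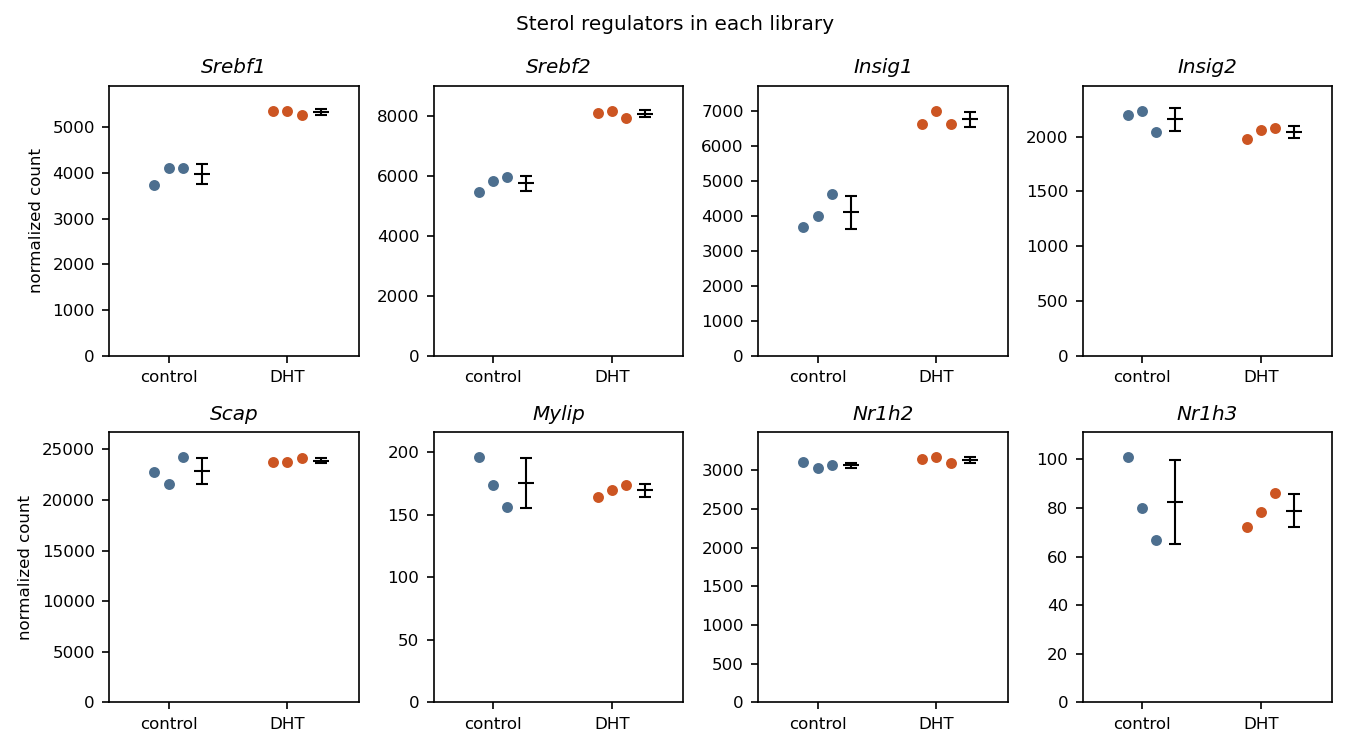
Normalized count (y axis, from 0) of each of the 8 sterol regulators in the 3 control and 3 DHT libraries. Points are libraries, and the black mark beside them is the mean with the SD. Srebf1, Srebf2 and Insig1 sit higher in every DHT library than in any control library, and the groups overlap for the other 5.

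The windows before the start sites of the regulators that rose are shown first, since SREBPs act on their targets through short promoter elements. RefSeq (GRCm38.p6) gives 14 start sites for the 8 genes, and the 250 bases before each were searched on both strands. Capitals mark TCACCC or its reverse GGGTGA, the core of the sterol regulatory element that SREBPs bind. Bases inside annotated exons of the gene (GENCODE vM21) were left out of the printed stretches, which read 5′ to 3′ along the gene. The fourth stretch, from Insig2, is printed because it also holds the core although the count of Insig2 did not pass the test.
Insig1, chr5:28071162-28071362, plus strand: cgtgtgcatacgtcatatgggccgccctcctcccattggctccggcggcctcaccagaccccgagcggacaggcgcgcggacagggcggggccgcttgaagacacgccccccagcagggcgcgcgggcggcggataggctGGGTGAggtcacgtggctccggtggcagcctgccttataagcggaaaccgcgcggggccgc
Srebf2, chr15:82147019-82147180, plus strand: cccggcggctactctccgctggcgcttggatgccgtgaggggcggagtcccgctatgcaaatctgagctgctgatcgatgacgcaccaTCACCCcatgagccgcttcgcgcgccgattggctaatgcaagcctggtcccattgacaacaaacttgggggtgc
Srebf1, chr11:60210472-60210721, minus strand: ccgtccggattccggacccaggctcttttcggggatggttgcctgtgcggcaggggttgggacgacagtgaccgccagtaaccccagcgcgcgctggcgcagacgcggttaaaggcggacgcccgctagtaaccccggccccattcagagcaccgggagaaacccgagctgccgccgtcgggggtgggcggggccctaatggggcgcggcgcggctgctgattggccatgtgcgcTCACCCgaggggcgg
Insig2, chr1:121328025-121328274, minus strand: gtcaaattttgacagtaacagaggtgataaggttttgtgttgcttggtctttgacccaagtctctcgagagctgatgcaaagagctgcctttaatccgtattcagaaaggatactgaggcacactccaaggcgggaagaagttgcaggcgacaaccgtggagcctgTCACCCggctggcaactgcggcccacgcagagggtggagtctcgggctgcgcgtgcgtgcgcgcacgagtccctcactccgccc

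The core lay 110 bases before the start site of Insig1, on the opposite strand, and 162 bases before that of Srebf2. In Srebf1 it was found 15 bases before the third of its 3 start sites, an internal one. The first and second start sites of Srebf1 had no match. Among the regulators that rose, 3 of 5 windows held the core, and among the other regulators 4 of 9 windows did, which belonged to Insig2 and Nr1h3. The core occurred in 13.8% of the 32851 windows of this kind in the genome table, so that a match by itself is common. The longer form TCACCCCA, which contains the core, was present in the window of Srebf2 and in none of the other windows of the 8 genes, against 1.34% of all windows. The E-box CACGTG, which SREBPs can also bind, occurred in 1 of 5 windows of the regulators that rose (Insig1, close to the core) and in 1 of 9 windows of the others (the second start site of Scap), against 6.02% of all windows. CCAAT, the box of NF-Y, was present in 4 of 5 windows of the regulators that rose and in 2 of 9 windows of the others (Insig2 and Mylip), against 33.8% of all windows. GGGCGG, the box of Sp1, was found in 4 of 5 and in 4 of 9 windows, respectively, against 32.7%. ACANNNTGT, core letters of the androgen response element, matched none of the 14 windows, against 5.84% of all windows. These are matches of letters within 250 bases and no measure of binding, and the motifs were chosen after the sequences had been seen.

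Srebf2 encodes SREBP-2, which mainly drives genes of cholesterol synthesis (chr15:82147181-82205379, plus strand, ENSMUSG00000022463). Its normalized count was 5462, 5835 and 5952 in the control libraries and 8088, 8182 and 7949 in the DHT libraries. The DHT values all exceeded the control values, and the DHT libraries were the closer to one another. The mean rose from 5750 ± 256 (SD, n = 3) to 8073 ± 117 (SD, n = 3), a log2 fold change of 0.49 (SE 0.0409, 95% interval 0.40 to 0.58, adjusted p = 0.00017 by limma). Srebf2 thereby took place 71 among all genes tested in order of p. An intron of Srebf2 carries the gene of miR-33, a miRNA known to act on Abca1. Its mature sequence, given here from RefSeq with the seed (bases 2 to 8) in capitals, lies at chr15:82198127-82198147 on the plus strand, and the miRNA was not measured in these libraries.
miR-33-5p: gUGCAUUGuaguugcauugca

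Srebf1 encodes SREBP-1, the member that favours genes of fatty acid synthesis (chr11:60199089-60222581, minus strand, ENSMUSG00000020538). It had 3733, 4102 and 4109 normalized counts in control and 5362, 5363 and 5259 under DHT. The groups did not overlap, and the lowest value was in control replicate 1, as it was for Srebf2. The means were 3981 ± 215 and 5328 ± 60.1 (SD, n = 3 each), which gave a log2 fold change of 0.42 (SE 0.0446, 95% interval 0.32 to 0.52, adjusted p = 0.00056 by limma). The gene makes the SREBP-1a and SREBP-1c forms from separate start sites, and a count per gene cannot tell these forms apart. Of its exonic bases 1.93% are shared with Rai1 on the other strand and 1.17% with Mir6922.

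Insig1 showed the largest rise of the 8 genes. INSIG1 retains SCAP in the endoplasmic reticulum, and Insig1 is itself a known SREBP target (chr5:28071363-28078662, plus strand, ENSMUSG00000045294). Its normalized count was 3699, 4013 and 4624 in control libraries and 6637, 7021 and 6641 in DHT libraries. The spread was wider in control than under DHT, and the highest control library stayed well below the lowest DHT library. The mean increased from 4112 ± 470 to 6766 ± 220 (SD, n = 3 each), 1.65-fold, with a log2 fold change of 0.72 (SE 0.0725, 95% interval 0.56 to 0.89, adjusted p = 0.00044 by limma).

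Insig2, the paralog of Insig1 that also holds SCAP back (chr1:121304353-121332589, minus strand, ENSMUSG00000003721), had 2196, 2238 and 2040 normalized counts in control and 1978, 2064 and 2076 under DHT. The groups overlapped. The mean was 2158 ± 104 in control and 2039 ± 53.8 under DHT (SD, n = 3 each), with a log2 fold change of -0.08 (SE 0.0474, adjusted p = 0.33 by limma) and a 95% interval from -0.19 to 0.03, so that a rise of the size seen for Insig1 lay outside it. Scap, the escort of both SREBPs (chr9:110333288-110384950, plus strand, ENSMUSG00000032485), had 22754, 21629 and 24247 in control and 23728, 23771 and 24148 under DHT. The DHT values fell within the range of the control values. The log2 fold change was 0.06 (SE 0.0466, 95% interval -0.04 to 0.17, adjusted p = 0.45 by limma). Of the exonic bases of Scap, 13.2% (985 of 7443) lie over 5830462I19Rik on the other strand, and the strand setting of the counting is not given in the sources used here.

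The LXR genes differed in level and neither passed the test. Nr1h2 (LXRβ, chr7:44549616-44553951, minus strand, ENSMUSG00000060601) had 3100, 3033 and 3064 normalized counts in control and 3142, 3170 and 3090 under DHT. These 6 values are close together, the groups overlap, and the log2 fold change was 0.03 (SE 0.0348, 95% interval -0.05 to 0.11, adjusted p = 0.63 by limma). Nr1h3 (LXRα, chr2:91184061-91202834, minus strand, ENSMUSG00000002108) was scarce, at 101, 79.9 and 66.7 in control and 72.4, 78.5 and 86 under DHT. Its log2 fold change was -0.05 with an SE of 0.18 (adjusted p = 0.91 by limma). The 95% interval from -0.45 to 0.36 does not leave out a change as large as that of Srebf1 in the opposite direction, and only 72 reads of Nr1h3 were counted in its lowest library. Mylip (chr13:45389742-45412022, plus strand, ENSMUSG00000038175) had 196, 174 and 156 in control and 164, 170 and 174 under DHT. The groups overlapped, and the log2 fold change was -0.04 (SE 0.115, 95% interval -0.30 to 0.22, adjusted p = 0.87 by limma), where the lowest library had 156 reads.

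**Figure D2:**
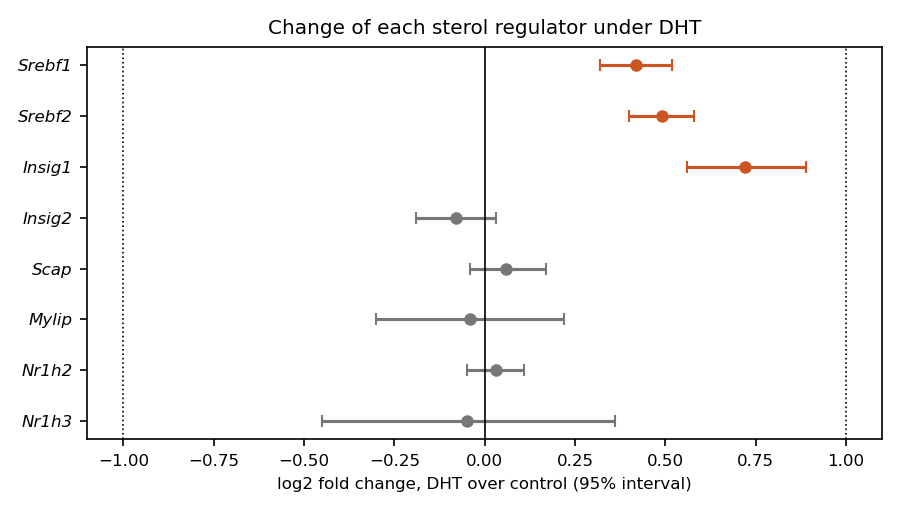
Log2 fold change of each sterol regulator, DHT over control (x axis), with its 95% interval from limma. Orange points are genes that were called, and dotted lines mark a log2 fold change of 1 in either direction. Insig1 (0.72), Srebf2 (0.49) and Srebf1 (0.42) lie to the right of 0, and the intervals of the other 5 genes include 0.

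Related regulators were next compared within each library, since a ratio of 2 genes in the same library does not depend on how libraries are scaled. Levels are given here as RPKM, reads scaled to the length of the annotated exons in kb and to the reads of the library. The ratio of Insig1 to Insig2 was 1.89, 2.01 and 2.55 in control and 3.77, 3.82 and 3.59 under DHT. Insig1 thus made up 68.0% ± 3.35 of the pair in control and 78.8% ± 0.544 under DHT (SD, n = 3 each). The log2 ratio differed by 0.80, and all DHT libraries were above all control libraries (exact permutation test, two-sided, p = 0.1, adjusted over 4 ratios 0.133). A p of 0.1 is the smallest that 3 against 3 libraries can give, so that none of these ratios could pass 0.05. The ratio of Insig1 to Scap went the same way, from 0.391, 0.446 and 0.459 to 0.673, 0.711 and 0.662, with a log2 difference of 0.66 (exact permutation p = 0.1, adjusted 0.133).

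Srebf1 and Srebf2 kept nearly equal levels. Their ratio was 0.872, 0.896 and 0.88 in control and 0.845, 0.836 and 0.844 under DHT. All DHT libraries lay slightly below all control libraries, with a log2 difference of -0.07 (exact permutation p = 0.1, adjusted 0.133), and Srebf1 made up 46.9% ± 0.355 of the pair in control and 45.7% ± 0.151 under DHT (SD, n = 3 each). The ratio of Nr1h3 to Nr1h2 was 0.0359 ± 0.00722 in control and 0.0336 ± 0.00323 under DHT (SD, n = 3 each), and its libraries overlapped (exact permutation p = 0.7, adjusted 0.7). LXRβ was therefore the main LXR transcript in both groups, with LXRα at 3.46% of the pair in control and 3.25% under DHT.

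**Figure D3:**
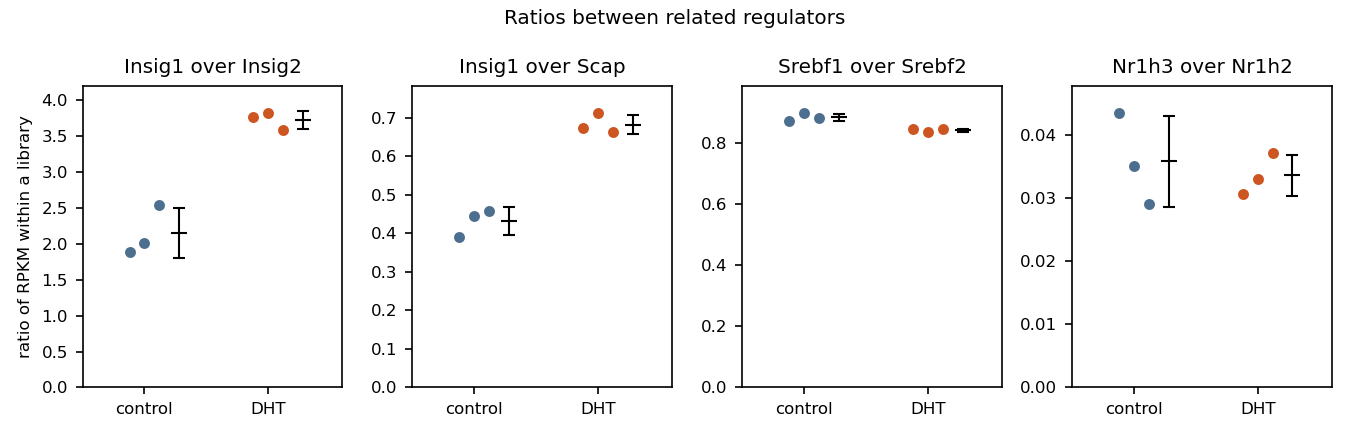
Ratio of RPKM between related regulators within each library (y axis, from 0), in 3 control and 3 DHT libraries. Points are libraries, and the black mark is the mean with the SD. Insig1 over Insig2 rises from a mean of 2.15 to 3.73 and Insig1 over Scap from 0.432 to 0.682, Srebf1 over Srebf2 moves from 0.883 to 0.842, and Nr1h3 over Nr1h2 overlaps between groups.

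In order of RPKM, averaged over all 6 libraries, Scap came first (80.8), followed by Insig1 (45.1), Srebf2 (24.7), Nr1h2 (23.8), Srebf1 (21.2), Insig2 (15.6), Mylip (1.37) and Nr1h3 (0.827). The place of Nr1h2 differed between the groups. In control all Nr1h2 libraries lay above all Srebf2 libraries (means 23.8 and 20.8), whereas under DHT the Srebf2 libraries lay above those of Nr1h2 (28.6 and 23.8). Nr1h2 likewise lay above Srebf1 in every control library, and under DHT these genes were close (23.8 and 24.1) and their libraries overlapped. With the longest transcript as the length, Nr1h2 came before Srebf2 in the mean over all 6 libraries. Srebf2 was above Srebf1 in each of the 6 libraries, and all other neighbours in the order were apart in all 6. Under DHT the mean RPKM went from 34.5 to 55.7 for Insig1, from 20.8 to 28.6 for Srebf2 and from 18.4 to 24.1 for Srebf1. Scap, in contrast, was at 79.9 in control and 81.7 under DHT.

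The genes around the regulators were described by lists. In the first, genes of SREBP processing and turnover, 4 of 22 were higher under DHT, 4 were lower and 14 did not pass. Of all genes tested, 6.52% were called higher and 4.66% lower. The median log2 fold change of the list was 0.03. The counts moved when a library was left out. Without DHT replicate 2 they were 2 higher and 1 lower, and without DHT replicate 3 they were 2 and 2. Mbtps1, the site-1 protease that makes the first cut in the SREBPs, fell from 8084 ± 221 to 6810 ± 122 normalized counts (SD, n = 3 each), a log2 fold change of -0.25 (adjusted p = 0.003 by limma), while Mbtps2, the site-2 protease, was at 0.05 (adjusted p = 0.49). Rnf145, a ubiquitin ligase that acts on SCAP, rose with a log2 fold change of 0.23 (adjusted p = 0.022). Fbxw7, which marks nuclear SREBPs for degradation, increased by 0.57 on the log2 scale (adjusted p = 0.005). Sec23b, a coat protein of the vesicles that leave the endoplasmic reticulum, also rose, with 0.22. Erlin1, which binds cholesterol and restrains SREBP activation, fell (-0.24, adjusted p = 0.01), as did its partner Erlin2 (-0.16) and the coat protein Sec24b (-0.22). Sec23b, Erlin2 and Sec24b were named after their values were seen. Among the weak calls were those of Rnf145, lost without any 1 of the DHT libraries (adjusted p 0.056 to 0.088), and Erlin2, lost without control replicate 1 or any DHT library (0.059 to 0.088). Erlin1 was lost without DHT replicate 2 (adjusted p = 0.051) and Sec24b without DHT replicate 2 or 3 (0.052 and 0.057). Where these calls were lost, the log2 fold changes stayed close to those above. They were 0.23 to 0.24 for Rnf145, -0.17 to -0.14 for Erlin2, -0.24 for Erlin1, and -0.22 and -0.19 for Sec24b.

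Known targets of the SREBPs were higher under DHT as well. Of the genes of cholesterol synthesis and uptake, 23 of 23 were higher under DHT, with a median log2 fold change of 0.80. The shares over all genes tested were 6.52% higher and 4.66% lower. Fdps, which makes farnesyl diphosphate, rose from 3137 ± 340 to 8177 ± 656 normalized counts (log2 fold change 1.38, adjusted p = 4e-05 by limma). Set among these genes, the rise of Insig1 was smaller than that of 16 of the 23 and larger than that of 7, whereas Srebf1 and Srebf2 each rose by less than 22 and by more than 1. Of the genes of fatty acid synthesis, 15 of 17 were higher and 0 lower, with a median of 0.54. Among them were Fasn, fatty acid synthase (0.51, adjusted p = 0.00059), Fads2, the delta-6 desaturase (1.12), and Scd1, stearoyl-CoA desaturase, which rose from 3953 ± 707 to 12554 ± 925 (1.68, adjusted p = 8.2e-05). Me1 and Mid1ip1 did not pass, at 0.03 and -0.16, although without control replicate 3 Mid1ip1 was called lower (-0.29, adjusted p = 0.022). At an unadjusted p under 0.05, in edgeR and in DESeq2 the count of lower genes was 0 in both lists.

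The targets and partners of the LXRs were mixed. Of 11 LXR targets 4 were higher, 1 was lower and 6 did not pass, with a median log2 fold change of 0.17. For this list and those below, the shares over all genes tested were 6.52% higher and 4.66% lower. Abcg1, a cholesterol efflux transporter, rose from 205 ± 21.9 to 562 ± 30.5 normalized counts (1.45, adjusted p = 6.6e-05 by limma). Abca1, the efflux transporter to lipid-poor apolipoprotein, was at 0.18 (adjusted p = 0.59), and Apoe at -0.07 (adjusted p = 0.57). Scd1 (1.68) and Scd2 (1.11) also rose, and both are counted among the fatty acid genes as well. The fourth gene that rose was Lpcat3, an enzyme of phospholipid remodelling (0.42), and Lpl, lipoprotein lipase, was the one that fell (-0.46, adjusted p = 0.003). Scd2 and Lpcat3 were named after their values were seen. The retinoid X receptors Rxra and Rxrb stood at -0.01 (adjusted p = 0.95) and 0.03 (adjusted p = 0.74). In the list of LXR partners and corepressors 3 of 11 were lower, and without DHT replicate 3 there was 1 lower gene, Tbl1x. Tbl1x (-0.22, adjusted p = 0.0043) and Tbl1xr1 (-0.25, adjusted p = 0.013), subunits of a nuclear receptor corepressor complex, fell. Tbl1xr1 lost its call without DHT replicate 3 (adjusted p = 0.059). The third lower gene, the corepressor Nrip1 (-0.21, adjusted p = 0.037), was named after its value was seen, and lost its call without any library other than control replicate 3 (0.054 to 0.12). Among genes of oxysterol synthesis and clearance, 0 of 7 passed in limma, in edgeR and in DESeq2, and 1 had an unadjusted p under 0.05 in limma. Cyp27a1, which makes the LXR ligand 27-hydroxycholesterol, was at -0.21 (adjusted p = 0.61). Ch25h was not analysed here.

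Lastly, the receptors that MYLIP removes were examined. Lrp8, also called ApoER2, rose from 2350 ± 184 to 3183 ± 202 normalized counts (log2 fold change 0.44, adjusted p = 0.0033 by limma). Vldlr was at -0.20 (adjusted p = 0.069), and it passed without control replicate 3 (-0.25, adjusted p = 0.011) and in DESeq2 (adjusted p = 0.035). In this list 2 of 7 genes were higher and 0 lower (0 in edgeR, 1 in DESeq2 and 1 at an unadjusted p under 0.05). Beside these counts, 6.52% of all genes tested were called higher and 4.66% lower. The E2 enzymes Ube2d1, Ube2d2a and Ube2d3 did not pass. RNA counts do not show receptor protein, which is the level at which MYLIP acts.

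**Figure D4:**
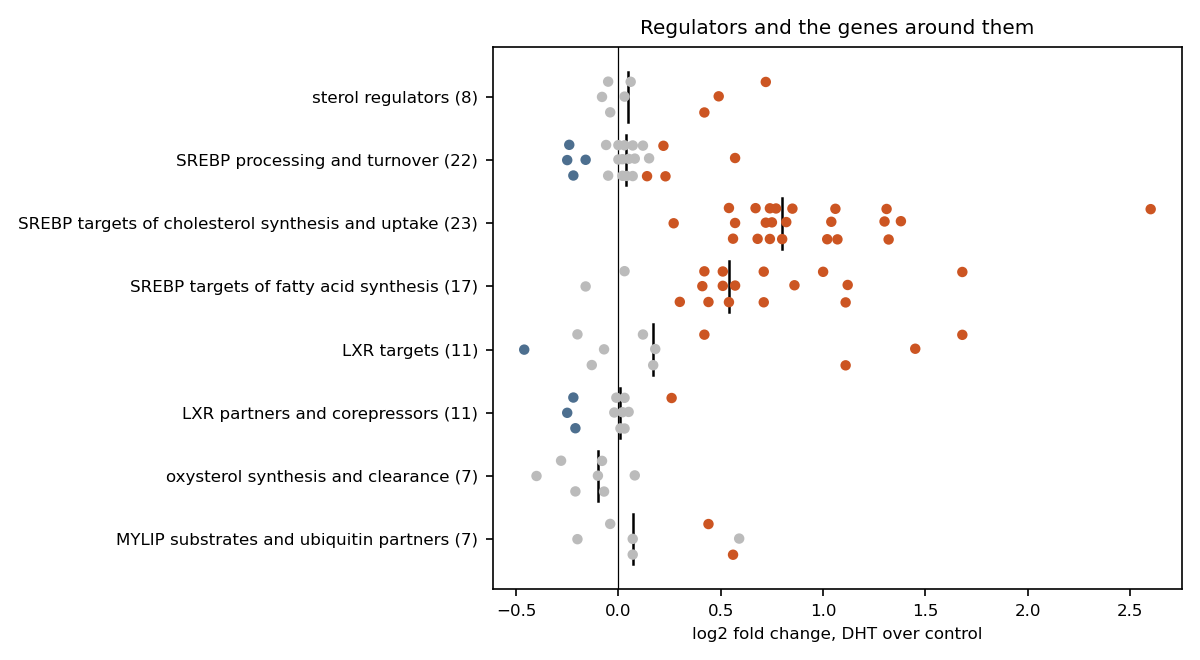
Log2 fold change, DHT over control (x axis), of the 8 sterol regulators and of the genes in each list (number tested in brackets). Each point is a gene, orange where called higher, blue where called lower and grey otherwise, and the black bar is the median of the row. The 23 genes of cholesterol synthesis and uptake all lie to the right of 0, while the processing genes lie on both sides.

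The genes whose pattern over the 6 libraries was most like that of a regulator were found by the root mean square difference of centred log2 values, where 0 is an identical pattern. Closest to Srebf2 were Echdc1 (0.0204), Tmod2 (0.0246) and Fasn (0.0291). Closest to Srebf1 were Tmod2 (0.0213), Ank2 (0.0247) and Unc13d (0.0265), and closest to Insig1 were Map2 (0.0517) and Pcyt2 (0.0556). The measure uses the contrast of control and DHT itself, and it is a description over 6 libraries with no test.

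Libraries held 36111177 to 41928585 reads. The summed RPKM of 9 GC markers was 1365 to 1483 in control and 1105 to 1149 under DHT, led by Inha (mean RPKM 785), and 1 marker was higher (Hsd17b1) and 2 were lower (Inha and Foxl2). Fshr, the FSH receptor, was low, at a mean RPKM of 1.61, and Cyp19a1 was not analysed here. Amh was low as well, with a mean RPKM of 2.03 in control and 1.93 under DHT. Fewer cells of a type and less RNA per cell cannot be told apart in such bulk libraries. Markers of other cells were near 0 in comparison, with a summed RPKM of 4.31 to 5.38 for 3 theca markers, 6.68 to 11.3 for 6 macrophage markers, 1.09 to 1.55 for 4 endothelial markers and 0.525 to 11.1 for 7 oocyte markers, of which DHT replicate 2 held the least. The macrophage marker Csf1r was lower under DHT. The part of these markers in the results above was not tested. Without DHT replicate 2, 3 of 3 regulators that rose were still called.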

How the data were processed

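RNA-seq of 6 libraries of cultured mouse GCs, 3 control and 3 DHT, was analysed, each library being a pool of cells from 5 mice. The groups were taken from the treatment characteristic, because the labels' treatment protocol names DHT for every sample. Per the submitters' processing notes and the methods, the authors trimmed reads with Trimmomatic 0.36, aligned them to GRCm38 with STAR 2.5.2b and counted them per gene with featureCounts of Subread 1.5.2. The strand setting is not given in the sources used here. The signal the authors deposited is a normalized count, that is, the read count of a gene after division by the size factor that DESeq2 gave its library. The table also holds fold changes and p-values of the authors' own comparison, and neither these nor a second deposited table of selected genes were used. No value column was left unmapped (0).

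In each library 100% of 16300 values were whole multiples of 1 step (tolerance 1e-06), and these steps gave recovered reads, 36111177 to 41928585 per library. Reads of 72 or more stood behind every value of the 8 regulators. Tests used limma 3.58.1 in R 4.3.3 (eBayes with an intensity trend, no block) on log2(normalized count + 1), genes with a mean of at least 10, and Benjamini-Hochberg adjustment, since deposited normalized counts are not raw counts. A fold change on this scale slightly understates the change of low genes. Ratios were compared by exact two-sided permutation tests. On simulated data with 16173 genes, limma recovered 94 of 100 genes changed by 0.5 on the log2 scale and 99 of 100 changed by 1 in the comparison of DHT with control. Every simulated gene had the same added spread between libraries, and the changed genes were drawn from those with a mean of at least 50 reads. These shares therefore do not give the recovery for a scarce gene such as Nr1h3, whose SE was 0.18. Alternatives were pseudocounts of 0.5 and 8, no filter, a mean of at least 50, TMM scaling, quantile normalization, no intensity trend, a replicate block, edgeR 4.0.16 and DESeq2 1.42.0 on recovered reads, and each library left out in turn.

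RPKM used the union of annotated exons (GENCODE vM21), which matched 16259 of 16300 genes (99.7%). The regulators and the lists were chosen with earlier results of these data known. Genes named from each list were, among those that passed, the 2 that rose most and the 2 that fell most, a set of genes named whatever their change, and the 3 genes most like each regulator that passed, and exceptions are stated. Some genes of this rule are not reported here. Promoter windows came from RefSeq (GRCm38.p6), with a match for 8 of 8 regulators.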

Additional observations from a re-analysis of the deposited data

How the results depend on the processing

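The counts of regulators that passed did not differ from the reported ones in any of 16 alternatives, and the same 3 regulators passed in each. Their log2 fold changes ranged from 0.38 to 0.45 (Srebf1), 0.45 to 0.52 (Srebf2) and 0.65 to 0.81 (Insig1), with the highest adjusted p, 0.022, 0.014 and 0.022, without an intensity trend. The other regulators did not pass in any alternative, but leaving out 1 library moved the sign of Mylip (-0.12 to 0.04) and Nr1h3 (-0.19 to 0.11), both near 0. The sign of Abca1 (-0.06 to 0.31), Cyp27a1 (-0.38 to 0.02), Rxra (-0.06 to 0.06) and Rxrb (-0.01 to 0.06) also turned. Without an intensity trend, 0 genes of SREBP processing were higher and 2 lower, and 0 LXR partners were higher. With a replicate block, 1 gene of SREBP processing was higher and 1 lower, and 1 LXR partner was lower, while the 3 regulators still passed. Whether replicate numbers pair these libraries is not stated in the sources used here. The deviations of libraries with the same number correlated by 0.00583, 0.0666 and -0.238. Those of different number correlated by -0.193 to 0.228, and so few values cannot decide whether the libraries were paired. In the ratios, a sign-flip test within numbers gave an exact p of 0.25, or 0.75 for Nr1h3 over Nr1h2, and cannot go lower than 0.25. Leaving out 1 library gave 2 to 3 higher and 1 to 4 lower genes of SREBP processing, 0 to 1 lower genes of fatty acid synthesis, 1 to 3 lower LXR partners and 0 to 1 lower genes of the MYLIP list, which also had 1 in DESeq2. With the longest transcript as length, Nr1h2 took place 3 and Srebf2 place 4. The causes were not tested. The fewest reads were those of Nr1h3 and Mylip, with 72 and 156 in their lowest libraries.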
